A study of Rattus norvegicus with 11 samples.

Results

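The effect of Roux-en-Y gastric bypass (RYGB) on the kidney of rats without diabetes was read from 6 single-colour arrays of renal cortex RNA. Of these, 3 came from Control+RYGB and 3 from Control+Sham, and they were chosen by the group given in the sample title. They are 6 of the 11 arrays of the study. The control rats were SD (Sprague Dawley) animals, whereas the diabetic (DM) rats of the other 2 groups, DM+Sham with 3 arrays and DM+RYGB with 2, had type 1 diabetes induced with STZ (streptozotocin, a toxin of the pancreatic beta cells). Control and diabetic rats alike were operated on 4 weeks after the induction of diabetes, and cortex was taken 4 weeks after surgery. The labels give no sex, age or pooling and do not tie an array to an animal of its own. The p-values below therefore measure only the spread between these samples, which may be technical. The series title places the work in the field of diabetic kidney disease, NADPH synthesis and AMPK activity, and the control rats show what the operation goes along with when there is no diabetes.

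In RYGB the stomach is divided, a small upper pouch is joined to the jejunum, and food no longer passes through most of the stomach, the duodenum and the upper jejunum. The operation is known for changes in gut hormones, bile acid return, and the uptake of calcium, iron and fat-soluble vitamins. The renal cortex consists mostly of proximal tubules, which reabsorb glucose, amino acids and phosphate, make glucose and ammonia, and activate vitamin D.

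Of 30367 probes, 80.2%, 77.7% and 90.5% lay well above background on the Control+Sham arrays. On the Control+RYGB arrays 93.5%, 90.2% and 91.3% did, and no probe was saturated. The 75th percentile of the signal was 2031, 1541 and 4454 in Control+Sham and 3468, 3027 and 3021.5 in Control+RYGB. This difference limits what a lack of detection on sham arrays alone can show. Control+RYGB 2 and 3 differed by less than repeated spots within an array (a spread of 0.054 on the log2 scale against 0.064 and 0.070) and were counted as 1 sample, although 577 of 24042 genes detected on both differed by over 1. DM+Sham 2 and 3 were merged in the same way, so Control+Sham entered as 3 samples and each other group as 2. No scan day held arrays of both control groups. All Control+RYGB arrays shared a barcode entry in the file headers that no other array had. Surgery therefore cannot be told apart from what that entry stands for, and from scan day only through the diabetic arrays. DM+RYGB 2 carried heart muscle transcripts, with a summed signal of 8.80 for 18 muscle markers against -0.64 to 0.41 on the other 10 arrays. That array enters the control comparison through the shared estimate of spread, the filter on dim probes and the joint scaling by quantiles.

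Levels are given as log2 of the signal minus the 75th percentile of the same array, so 0 marks a probe as bright as that percentile, and a difference of 1 is a 2-fold change. Levels of different genes were not compared, since each probe has its own brightness. The words rose and fell are kept for genes where limma gave a Benjamini-Hochberg adjusted p under 0.05 in the same direction with 3 scalings, to the 75th percentile, to the median and by quantiles. Of 25250 genes tested, 1961 rose (7.77%) and 1387 fell (5.49%) in Control+RYGB. Among the 14358 genes with a symbol, 831 rose (5.79%) and 958 fell (6.67%), and these are the shares against which the lists below are read. With the 75th percentile alone 5453 genes were higher (21.6%) and 1390 lower (5.5%), with the median 3880 (15.4%) and 1962 (7.77%), and by quantiles 1996 (7.9%) and 2974 (11.8%). The share of calls that were higher was thus 79.7%, 66.4% and 40.2%, and the median change of all genes 0.29, 0.16 and -0.04. The arrays of the 2 groups did not overlap for 65.2% of all genes, so that a lack of overlap by itself sets no gene apart. Without Control+RYGB 1, 154 genes rose and 242 fell, and without Control+RYGB 2 and 3, 214 rose and 267 fell, each of these 2 leave-out fits keeping 1 RYGB sample that is assumed to vary like the other groups. With scan day as a block, linked through the diabetic arrays, 66 rose and 53 fell. That fit counted all 11 arrays as separate samples, the merged pairs included. With normexp background correction, applied to the median spot signal and not to the processed intensity, 44 rose and 43 fell. No gene list held more than 1 rise or 2 falls with the scan-day block, or more than 2 rises or 2 falls with normexp. Calls in either direction numbered 3348, and 994 without Control+Sham 1, 1225 without Control+Sham 2 and 5444 without either DM+RYGB array.

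**Figure D1:**
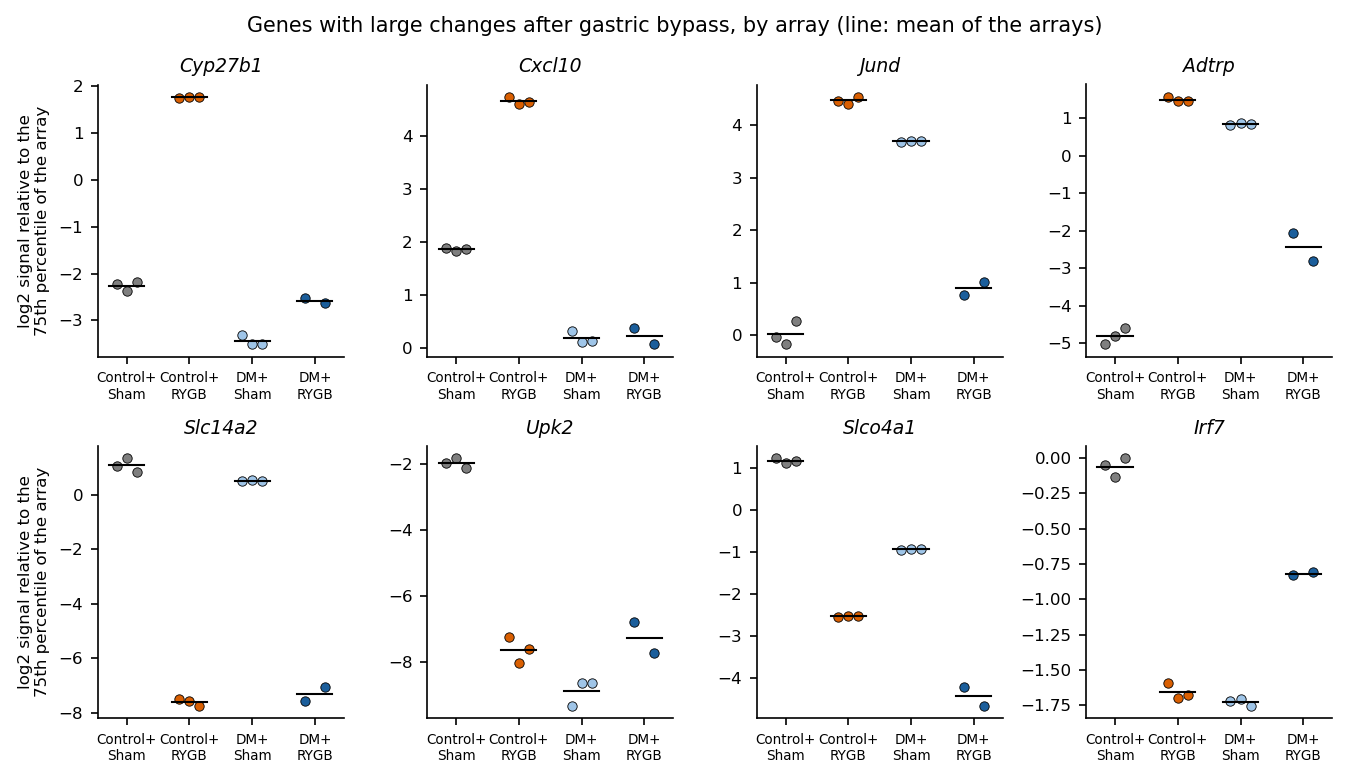
Log2 signal relative to the 75th percentile of the array (y axis) for 8 genes on each of the 11 arrays, grouped by surgery and diabetes (x axis), with points for arrays and lines for their means. In the control rats the 3 RYGB arrays lie apart from the 3 sham arrays for every gene shown, with Cyp27b1 at 1.75, 1.77 and 1.78 against -2.22, -2.38 and -2.18.

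The gene of vitamin D activation stood among the firmest changes. Cyp27b1 encodes the 1-alpha-hydroxylase of the proximal tubule, which turns 25-hydroxyvitamin D into the active hormone, and its levels were -2.22, -2.38 and -2.18 on the sham arrays and 1.75, 1.77 and 1.78 on the RYGB arrays. All 3 RYGB arrays were thus far above all sham arrays, and the gene rose by 4.02 (SE 0.12, adjusted p = 3.1e-05), a 16.3-fold difference. Cyp24a1, the enzyme that degrades the hormone, moved the opposite way. It stood at -5.48, -5.23 and -5.74 on the sham arrays and at -6.98, -7.42 and -7.25 on the RYGB arrays, without overlap, and fell by 1.67 (SE 0.27, adjusted p = 0.0095). Gc, the vitamin D binding protein of plasma, fell by 0.88 (SE 0.21, adjusted p = 0.028), and Stc1, a stanniocalcin with a role in calcium and phosphate handling, rose by 0.76 (SE 0.09, adjusted p = 0.0044). Of the 30 measured genes of vitamin D, calcium, phosphate and Klotho, Cyp27b1 and Stc1 rose, Cyp24a1 and Gc fell, and 26 did not pass, with a list median of 0.32 against 0.29 over all genes. The vitamin D receptor and the calcium and phosphate channels and carriers of the tubule were among the 26. Cyp27b1 passed in all 4 harder fits (the 2 leave-out fits, the scan-day block and normexp), and the other 3 passed in none of them.

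In diabetic rats the operation went along with a smaller difference in Cyp27b1, which was -3.31, -3.51 and -3.51 on the DM+Sham arrays and -2.52 and -2.64 on the DM+RYGB arrays, a change of 0.83 that did not pass with all 3 scalings. The change in diabetic rats was lower than that in control rats by 3.19 on the log2 scale (limma interaction, adjusted p = 2.9e-04). Cyp24a1, by contrast, fell by 1.75 in diabetic rats, and its changes in both were not told apart (difference -0.08, interaction adjusted p = 0.91).

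Markers of the cortex were present on all 6 arrays. After bypass 6 of 11 markers of the inner medulla and 7 of 14 of the urinary lining fell. All 34 measured proximal tubule markers were well above background on all 6 arrays. Of them 3 rose and none fell: Pck1, Cyp2e1 and Dpep1, the last a dipeptidase of the brush border that rose by 0.76 (SE 0.13, adjusted p = 0.01), and none of the 3 passed in either leave-out fit. With the 75th percentile the summed signal of the 34 markers was 8.42 to 8.98 on the sham arrays and 9.41 to 9.77 on the RYGB arrays. This difference depends on the scaling, since the list median was 0.71 with the 75th percentile and 0.11 by quantiles. By limma none of 14 intercalated cell, 8 distal convoluted tubule, 14 endothelial, 18 macrophage, 10 red blood cell, 18 muscle, 11 fat or 10 adrenal markers passed with 3 scalings. At an unadjusted p under 0.05 with the 75th percentile the counts in that order were 4, 4, 3, 4, 2, 2, 4 and 5. The share of all genes that passes at that unadjusted p was not computed, here or for the lists below. Over all 25250 genes the fit to the 2 control groups alone gave 2979 rises and 2053 falls with 3 scalings. There 3 macrophage markers fell and 1 rose, 4 red blood cell markers rose and 1 fell, and 5 muscle markers rose and 1 fell. In that fit 2 intercalated cell markers rose and 1 fell, 1 fat marker went each way, 1 distal convoluted tubule marker rose, and no endothelial or adrenal marker passed. The summed signal of the red blood cell markers was 4.44 to 4.72 in sham and 5.90 to 6.20 after bypass, and the part of blood in the results was not tested. In bulk RNA fewer cells of a type and less RNA per cell cannot be told apart.

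Of 14 measured urothelium markers, 7 fell and 1 rose, with a median of -0.71. Upk2, a uroplakin of the plaques that seal the surface of the urinary tract, was -1.96, -1.82 and -2.12 on the sham arrays and -7.23, -8.02 and -7.59 on the RYGB arrays and fell by 5.55 (SE 0.34, adjusted p = 3.8e-04). The uroplakin Upk3a fell by 3.55, and Upk1a fell by 2.64. The keratin of its basal cells, Krt15, fell by 5.59 (SE 0.57, adjusted p = 0.0027), from -2.03, -2.27 and -2.03 to -6.71, -8.43 and -8.94, and was well above background on 1 of the 3 RYGB arrays. Upk1b fell by 3.45 on its brighter probe, but its second probe gave 0.65. Krt17 and Krt20 also fell, and Tp63, a transcription factor of basal epithelial cells, rose by 0.52 on 1 probe with -3.66 on another. The summed urothelium signal ran from 2.0 to 2.09 in Control+Sham, from 1.14 to 1.33 in Control+RYGB, from 1.01 to 1.10 in DM+Sham and from 2.32 to 2.63 in DM+RYGB. Without Control+RYGB 1, 5 of these markers fell, without Control+RYGB 2 and 3, 6 fell, and 2 each did so with the scan-day block and with normexp.

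Of 11 inner medulla and papilla markers, 6 fell and 1 rose, with a median of -0.74. The largest difference of any gene named here that was well above background on all 6 arrays was that of Slc14a2, the vasopressin-regulated urea transporter of the inner medullary collecting duct. It was 1.06, 1.32 and 0.82 on the sham arrays and -7.51, -7.56 and -7.75 on the RYGB arrays, and fell by 8.65 (SE 0.20, adjusted p = 1.9e-05), with -5.96 on its second probe. The difference held in all 4 harder fits. It was also present with diabetes, where the level was 0.49, 0.52 and 0.51 in DM+Sham and -7.55 and -7.07 in DM+RYGB. Akr1b1, the aldose reductase that makes the osmolyte sorbitol, was 1.36, 1.24 and 1.58 in sham and -2.87, -2.72 and -2.71 after bypass and fell by 4.19 (SE 0.44, adjusted p = 0.0029). Aqp4, a basolateral water channel of the collecting duct, fell by 1.95 (SE 0.28, adjusted p = 0.0072), and its other 2 probes gave -2.28 and -1.59. Slc6a12, the betaine carrier, fell by 0.85 and S100a4 by 1.71, while Slc6a6, the taurine carrier, rose by 1.29. The summed signal was 4.37 to 4.58 in Control+Sham and 3.45 to 3.67 in Control+RYGB, with 3.83 to 3.95 in DM+Sham and 3.75 to 3.85 in DM+RYGB. Without Control+RYGB 1, and likewise without Control+RYGB 2 and 3, 3 members fell.

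Neighbouring nephron segments held fewer changes. The summed signal of the thick ascending limb markers was 5.46 to 5.91 in sham and higher after bypass, at 6.14 to 6.78. That of the principal cell markers overlapped, with 5.60 to 6.085 in sham and 5.87 to 5.97 after bypass. Of 11 thick ascending limb markers, 3 fell, and in each leave-out fit 1 of them fell. Of 13 principal cell markers, 3 fell, Aqp4, Elf5 and Krt18 (1 in each leave-out fit), and Elf5 fell by 2.30 on 1 probe with 1.25 on its second. Aqp2, the vasopressin-regulated water channel, was 5.17, 5.22 and 4.39 in sham and 5.31, 5.22 and 5.18 after bypass, a change of 0.33 (SE 0.32, adjusted p = 0.46) that was -0.52 with quantile scaling (limma, adjusted p = 0.026) and -0.59 from the deposited values (adjusted p = 0.0176), so its direction depends on the scaling. The part of tissue sampling in the lower inner medullary and urothelial signal was not tested.

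**Figure D2:**
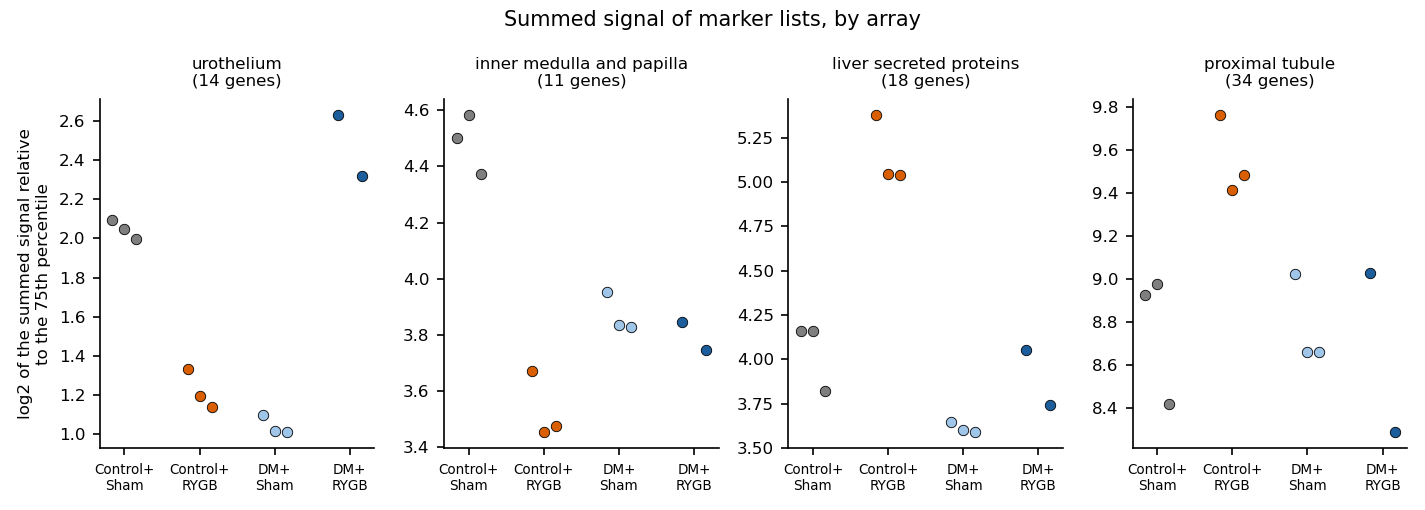
Log2 of the summed signal of 4 marker lists relative to the 75th percentile (y axis) on each of the 11 arrays (points), by group (x axis). Urothelium and inner medulla signal is highest among control rats in the sham arrays, at 2.0 to 2.09 and 4.37 to 4.58. Liver-type and proximal tubule signal is highest in Control+RYGB with this scaling, while the proximal tubule median change is 0.11 by quantiles.

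The interferon-stimulated genes split into a large group that was lower and 3 that were higher after bypass. Type I interferon acts through a complex of Stat and Irf proteins, which binds an interferon response element upstream of antiviral genes, and Irf7 in turn raises interferon output. Of 34 measured members, 14 fell and 3 rose, with a list median of -0.38. The upstream stretches of 6 that fell, of 1 that rose and of a clock gene treated below are shown here because they hold the core letters of the interferon response element or, for the clock gene, of the E-box. They are RefSeq promoter windows of the rat build GRCr8 on the strand of the gene, 5′ to 3′, 120 bases each, from -100 to 20 relative to the annotated start, or from -250 to -131 for Cxcl10. Capitals mark GAAA, 2 bases of any kind and GAAA again, on either strand, which reads TTTC, 2 bases and TTTC where it lies on the opposite strand. In Ciart they mark CACGTG.

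Irf7 (chr1:205800004-205800123, minus strand): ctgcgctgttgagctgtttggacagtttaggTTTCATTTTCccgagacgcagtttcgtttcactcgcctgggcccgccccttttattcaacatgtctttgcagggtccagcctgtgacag
Gbp2 (chr2:234005627-234005746, plus strand): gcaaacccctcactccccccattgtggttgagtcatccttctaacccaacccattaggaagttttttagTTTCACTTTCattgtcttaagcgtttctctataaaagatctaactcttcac
Gbp5 (chr2:233910899-233911018, plus strand): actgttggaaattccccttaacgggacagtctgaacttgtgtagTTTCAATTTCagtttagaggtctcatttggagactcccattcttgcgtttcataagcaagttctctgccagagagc
Ifit3 (chr1:241527226-241527345, plus strand): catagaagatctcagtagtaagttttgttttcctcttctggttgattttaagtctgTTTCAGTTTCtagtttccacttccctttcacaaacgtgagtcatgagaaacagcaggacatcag
Ifi44 (chr2:243303821-243303940, minus strand): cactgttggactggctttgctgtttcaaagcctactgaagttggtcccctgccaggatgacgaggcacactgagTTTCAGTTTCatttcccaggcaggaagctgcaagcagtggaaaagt
Psmb8 (chr20:4657012-4657131, minus strand): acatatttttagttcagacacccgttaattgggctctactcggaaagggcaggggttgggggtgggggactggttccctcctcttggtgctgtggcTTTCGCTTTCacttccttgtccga
Cxcl10 (chr14:15988816-15988935, plus strand): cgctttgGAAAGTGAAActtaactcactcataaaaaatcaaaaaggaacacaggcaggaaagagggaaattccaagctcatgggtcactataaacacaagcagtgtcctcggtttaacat
Ciart (chr2:186112227-186112346, minus strand): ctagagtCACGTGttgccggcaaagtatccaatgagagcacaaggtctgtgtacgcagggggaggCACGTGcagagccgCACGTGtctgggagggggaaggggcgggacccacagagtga

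The motif begins at -69 in Irf7, -31 in Gbp2, -56 in Gbp5, -44 in Ifit3, -26 in Ifi44, -4 in Psmb8 and -243 in Cxcl10, and Ifi44 has a second match at 27. It lay in 3.92% of all 33469 windows of 300 bases. Of the list, 6 of 11 genes with a window that fell held it, as did 1 of 3 that rose and 9 of 11 that did neither. A match describes the letters only and is no measured binding site.

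Irf7, the factor that amplifies the interferon response, was -0.05, -0.13 and 0.00 on the sham arrays and -1.59, -1.70 and -1.68 on the RYGB arrays. It fell by 1.58 (SE 0.09, adjusted p = 3.5e-04), and the call held in all 4 harder fits. Isg15, a ubiquitin-like modifier, stood at -1.06, -1.11 and -1.20 in sham and -2.29, -2.35 and -2.40 after bypass and fell by 1.21 (SE 0.10, adjusted p = 0.0011). Mx1, a dynamin-like antiviral GTPase, fell by 1.10 (SE 0.11, adjusted p = 0.0025). Oasl fell by 1.33, the guanylate-binding proteins Gbp5 and Gbp2 by 1.16 and 1.04, and Usp18, which removes Isg15 from proteins, by 0.99. Ifit2 and Ifit3, which bind foreign RNA, fell by 0.74 and 0.67. Stat2 and Irf9, parts of that complex, fell by 0.56 and 0.35. Falls in Cmpk2, Ifi44 and Psmb8 were 0.55, 0.49 and 0.44. Of the list, 3 fell and 3 rose without Control+RYGB 1, and 3 fell and 2 rose without Control+RYGB 2 and 3. With the scan-day block 1 fell and 1 rose, and with normexp 1 fell and 2 rose.

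The 3 that rose were the chemokines Cxcl10 and Cxcl11, which attract T cells, and Irf1. Cxcl10 was 1.88, 1.83 and 1.86 on the sham arrays and 4.73, 4.60 and 4.64 on the RYGB arrays, and rose by 2.81 (SE 0.13, adjusted p = 1.6e-04). Cxcl11 rose by 1.78 (SE 0.09, adjusted p = 2.4e-04), from -2.0, -2.09 and -2.07 to -0.28, -0.25 and -0.26. Irf1 rose by 1.21 (SE 0.12, adjusted p = 0.0022), and its second probe gave 1.26. Of 16 T and B cell markers none rose and 3 fell, among them Gzmb and Gzma, with none in either leave-out fit.

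In diabetic rats the interferon list went the other way, with 13 members that rose and 2 that fell, against 9.69% and 14.1% of all genes with a symbol. The difference between both responses passed for 23 of the 34 members, against 17.9% of genes with a symbol. Irf7 rose by 0.90 there (interaction adjusted p = 3.3e-04), from -1.72, -1.70 and -1.75 to -0.83 and -0.81. Isg15 rose by 1.20 (interaction adjusted p = 4.0e-04), and Ifit3 by 1.99 (interaction adjusted p = 0.0011). Cxcl10 changed by -0.01 in diabetic rats, less than in controls (interaction adjusted p = 4.7e-04).

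Other inflammatory genes held 3 rises and 8 falls among 39 measured, with a median of 0.01. Ccl20, a chemokine for cells that carry Ccr6, rose by 2.52 (SE 0.10, adjusted p = 7.9e-05), from -4.08, -4.21 and -4.04 to -1.59, -1.60 and -1.58, and its second probe gave 2.66. Cxcl12, the ligand of Cxcr4, rose by 1.05 (SE 0.14, adjusted p = 0.0058) and Icam1 by 0.69. Ptgs1, the constitutive cyclooxygenase, fell by 1.93 (SE 0.11, adjusted p = 2.6e-04), from -0.72, -0.72 and -0.59 to -2.59, -2.45 and -2.79, with -0.43 on its second probe. The neutrophil chemokine Cxcl2 fell by 2.09, Ccl3 by 0.98, and the monocyte chemokine Ccl2 by 0.56. Ccl20 passed with the scan-day block and both leave-out fits but not with normexp. The list held 1 rise and 1 fall without Control+RYGB 1, and 1 rise and 2 falls without Control+RYGB 2 and 3.

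Genes of cholesterol synthesis and handling fell in part. Of 29 measured members 10 fell and none rose, with a median of -0.15 and 0.29 over all genes. Of the synthesis pathway, Pmvk, Fdps, Sqle, Lss, Cyp51 and Hsd17b7 fell, named in the order in which they act, by 0.63, 0.41, 0.72, 0.95, 0.58 and 0.43. Lss, the cyclase that forms lanosterol, was 0.64, 0.86 and 0.42 in sham and -0.27, -0.35 and -0.33 after bypass (adjusted p = 0.017). The exporters Abca1 and Abcg1 fell by 0.67 and 0.37. Without Control+RYGB 1, without Control+RYGB 2 and 3, and with the scan-day block, 1 gene of this list passed, and none did with normexp.

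Fatty acid genes went in both directions. In the synthesis list of 23, Fasn, the fatty acid synthase, fell by 0.77 (SE 0.13, adjusted p = 0.011), Acsl5 by 0.72 and the desaturase Scd2 by 0.54, while the desaturase Scd rose by 1.59 (SE 0.25, adjusted p = 0.0092). In the list of oxidation and PPAR-alpha targets 6 of 41 rose and 1 fell. Fabp1, the liver-type fatty acid binding protein, rose by 2.26 (SE 0.18, adjusted p = 9.5e-04), from -4.31, -4.25 and -4.80 to -2.23, -2.13 and -2.21. Slc22a5, the carnitine carrier, rose by 1.88 (SE 0.28, adjusted p = 0.0081). Cyp4a8 rose by 2.07, with RYGB arrays at 4.69, 3.79 and 3.80 and a difference of 0.25 on its second probe. Angptl4 and Acot12 rose by 0.83 and 0.88. Cpt1a, the gate of mitochondrial oxidation, fell by 0.73 (SE 0.10, adjusted p = 0.0055). Fabp1 alone of the oxidation list rose in each leave-out fit, no gene of the synthesis list passed in either, and Cpt1a fell in the fit without Control+RYGB 2 and 3.

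Of glucose production, Pck1 and Slc37a4 rose out of 10 measured genes. Pck1, the rate-limiting cytosolic carboxykinase, was 3.19, 3.02 and 2.79 on the sham arrays and 4.71, 4.32 and 4.39 on the RYGB arrays and rose by 1.54 (SE 0.27, adjusted p = 0.013). Slc37a4, which carries glucose-6-phosphate into the endoplasmic reticulum, was 3.26, 3.30 and 2.96 in sham and 5.41, 4.75 and 4.75 after bypass and rose by 1.91 (SE 0.33, adjusted p = 0.012). Their partner G6pc1, which releases glucose, changed by 1.12 (SE 0.19, adjusted p = 0.011) without a call. Of 34 glycolysis genes none rose and 4 fell, Pfkfb3, Eno1, Aldoc and Pfkp. Pfkfb3, which makes the activator of phosphofructokinase, fell by 1.34 (SE 0.11, adjusted p = 0.0013) on its brighter probe, with 0.09 on its second. Aldoc, an aldolase, fell by 0.52 on its brighter probe, with 0.41 on its second, and 1 glycolysis gene fell in each leave-out fit. None of 13 glucose transporters passed in limma with 3 scalings, against 7 at an unadjusted p under 0.05 and 3 in the fit to the 2 control groups alone. Slc5a2, the proximal tubule transporter SGLT2, was 4.36, 4.45 and 4.10 in sham and 5.31, 5.13 and 5.16 after bypass, a difference of 0.92 with the 75th percentile (SE 0.20, adjusted p = 0.022) that was 0.19 with quantile scaling and passed no call.

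Of ammonia production and transport, 3 of 18 rose, with Pck1 counted again. Glul, the glutamine synthetase, rose by 1.51 (SE 0.29, adjusted p = 0.015), from 1.86, 1.83 and 1.94 to 3.46, 3.29 and 3.35, and the membrane-bound carbonic anhydrase Car15 by 0.94. Slc38a3, a basolateral glutamine carrier of the proximal tubule, fell by 0.81 (SE 0.14, adjusted p = 0.012), from -1.07, -0.76 and -0.98 to -1.86, -1.63 and -1.62. In the urea and polyamine list 4 of 26 rose and none fell: Cps1, Arg1, Sat1 and Sms. Cps1, the first enzyme of the urea cycle, was -7.63, -7.76 and -7.28 in sham and -5.46, -5.35 and -5.46 after bypass and rose by 2.12 (SE 0.21, adjusted p = 0.0023), and it was well above background on 1 of 3 sham arrays. In each leave-out fit no gene of the glucose production and ammonia lists passed, and Cps1 alone of the urea list did.

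The enzymes that make NADPH and the subunits of AMPK, the subjects of the series title, held few changes that passed the test in the control rats. Of 15 NADPH-producing enzymes 1 fell, Mthfd2l, by 0.51 (SE 0.11, adjusted p = 0.02), with no call in either leave-out fit, and of 12 pentose phosphate genes none passed in limma with 3 scalings, against 3 at an unadjusted p under 0.05 and 1 in the fit to the 2 control groups alone. H6pd, which makes NADPH in the endoplasmic reticulum, differed by -0.09 (SE 0.12, adjusted p = 0.6) with 0.44 on its second probe, and the malic enzyme Me1 by -0.41 (SE 0.13, adjusted p = 0.061). The isocitrate dehydrogenases Idh1 and Idh2 differed by 0.49 (adjusted p = 0.033) and 0.74 (adjusted p = 0.086), and neither passed with all 3 scalings, Idh2 being -0.095 by quantiles. The background share of genes with a symbol that passed in either direction was 12.5%.

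Of 27 AMPK subunits and regulators 1 rose, the gamma subunit Prkag3, from -5.79, -5.41 and -5.48 to -4.43, -4.38 and -4.35, by 1.17 (SE 0.13, adjusted p = 0.0037), with 0.56 on its second probe and no call in either leave-out fit. The catalytic subunits Prkaa1 and Prkaa2 differed by 0.12 (SE 0.10, adjusted p = 0.36) and 0.12 (SE 0.26, adjusted p = 0.76), and by -0.045 and -0.032 with quantile scaling. The gamma subunit Prkag1 differed by -0.19 (SE 0.10, adjusted p = 0.17), and the upstream kinase Stk11 by 0.58 (SE 0.11, adjusted p = 0.017) without passing by quantile scaling. A p that misses the threshold does not show equal levels. Of 12 NADPH oxidase genes none passed in limma, against 5 at an unadjusted p under 0.05 and 2 in the fit to the 2 control groups alone. Nox4, the main member in the tubule, differed by 0.53 (SE 0.20, adjusted p = 0.089). In diabetic rats Prkag1 rose by 0.99 and H6pd fell by 1.13, and both changes differed from those of control rats (interaction adjusted p = 0.0032 and 0.0093).

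Transcripts best known from the liver were higher after bypass. Of 18 measured genes for liver-secreted proteins 10 rose and 1 fell, Gc, with a median of 0.95. Alb, serum albumin, was 0.28, 0.35 and -0.30 in sham and 3.25, 2.86 and 2.88 after bypass and rose by 2.95 (SE 0.31, adjusted p = 0.0028). Apoa2, an apolipoprotein of high density lipoprotein, rose by 3.01 (SE 0.34, adjusted p = 0.0036), and Hp, haptoglobin, by 2.27 (SE 0.24, adjusted p = 0.0028). The 3 fibrinogen chains Fgg, Fgb and Fga rose by 2.27, 1.16 and 0.97. The other members that rose were Ahsg, Serpina1, Ttpa and Ambp, from 0.88 to 1.83. Kng2 and Kng1, kininogens of the bradykinin system, rose by 2.53 and 2.36. All 18 were well above background on all 6 arrays, sham included, and their summed signal was 3.82 to 4.16 in Control+Sham, 5.04 to 5.38 in Control+RYGB, 3.59 to 3.64 in DM+Sham and 3.74 to 4.05 in DM+RYGB. In diabetic rats Alb rose by 3.38 and Hp by 2.41, but Fgb and Fga fell by 2.40 and 3.18 (interaction adjusted p = 4.0e-04 and 4.2e-04). In each leave-out fit 4 of the list rose, and none did with the scan-day block. Whether RNA of another tissue has a part in this was not tested.

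Xenobiotic enzymes changed both ways, with 7 rises and 6 falls among 37, Cyp27b1 and Cyp24a1 counted in. Cyp2c11, a male-typical cytochrome of rat liver, was -0.21, -0.12 and -0.18 in sham and -2.90, -3.15 and -2.99 after bypass and fell by 2.81 (SE 0.12, adjusted p = 1.4e-04). Ahrr, the repressor of the aryl hydrocarbon receptor, fell by 2.52 (SE 0.15, adjusted p = 3.8e-04), while Cyp1a1 and Cyp1a2, both targets of that receptor, rose by 2.34 and 2.77. Cyp1a1 was -4.08, -4.08 and -3.75 in sham and -1.59, -1.65 and -1.69 after bypass. Cyp2e1 rose by 1.10, and Ephx2, the soluble epoxide hydrolase, fell by 1.23 (SE 0.12, adjusted p = 0.002). Ugt2b1, a glucuronosyltransferase, was not well above background on any sham array, and was at least 7.33-fold higher after bypass (adjusted p = 0.016). Such a bound replaces the dim arrays by the detection limit of each, the dimmest probe still well above background, or by the probe itself where that is brighter. Both leave-out fits held 2 rises and 3 falls in this list.

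Of 19 bile acid genes 3 rose and 2 fell. Abcb11, the bile salt export pump, rose by 2.21 (SE 0.24, adjusted p = 0.0029), from -4.58, -4.64 and -4.68 to -2.41, -2.47 and -2.42. Slc27a5 and Baat, which couple bile acids to coenzyme A and to amino acids, rose by 1.73 and 1.54. Fabp6, the ileal bile acid binding protein, fell by 2.75 (SE 0.24, adjusted p = 0.0015), from -3.71, -3.40 and -3.92 to -6.32, -6.33 and -6.74, and Slc10a1 by 0.44. In diabetic rats Slc27a5 and Baat fell, by 5.35 and 3.65, and Fabp6 rose by 2.89 (interaction adjusted p = 1.1e-04, 2.5e-04 and 4.2e-04). Both leave-out fits held 1 rise and 1 fall among the bile acid genes. Among 26 organic ion transporters 2 rose and 3 fell, of which 1 fell in each leave-out fit. Slco4a1, a carrier of thyroid hormone and other anions, was 1.22, 1.12 and 1.15 in sham and -2.55, -2.52 and -2.52 after bypass and fell by 3.70 (SE 0.14, adjusted p = 7.9e-05), and it fell by 3.50 in diabetic rats. Slco1a1, a sex-dependent anion carrier of the brush border, fell by 1.01 (SE 0.18, adjusted p = 0.012) in control rats and rose by 5.95 in diabetic rats (interaction adjusted p = 1.1e-04).

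**Figure D3:**
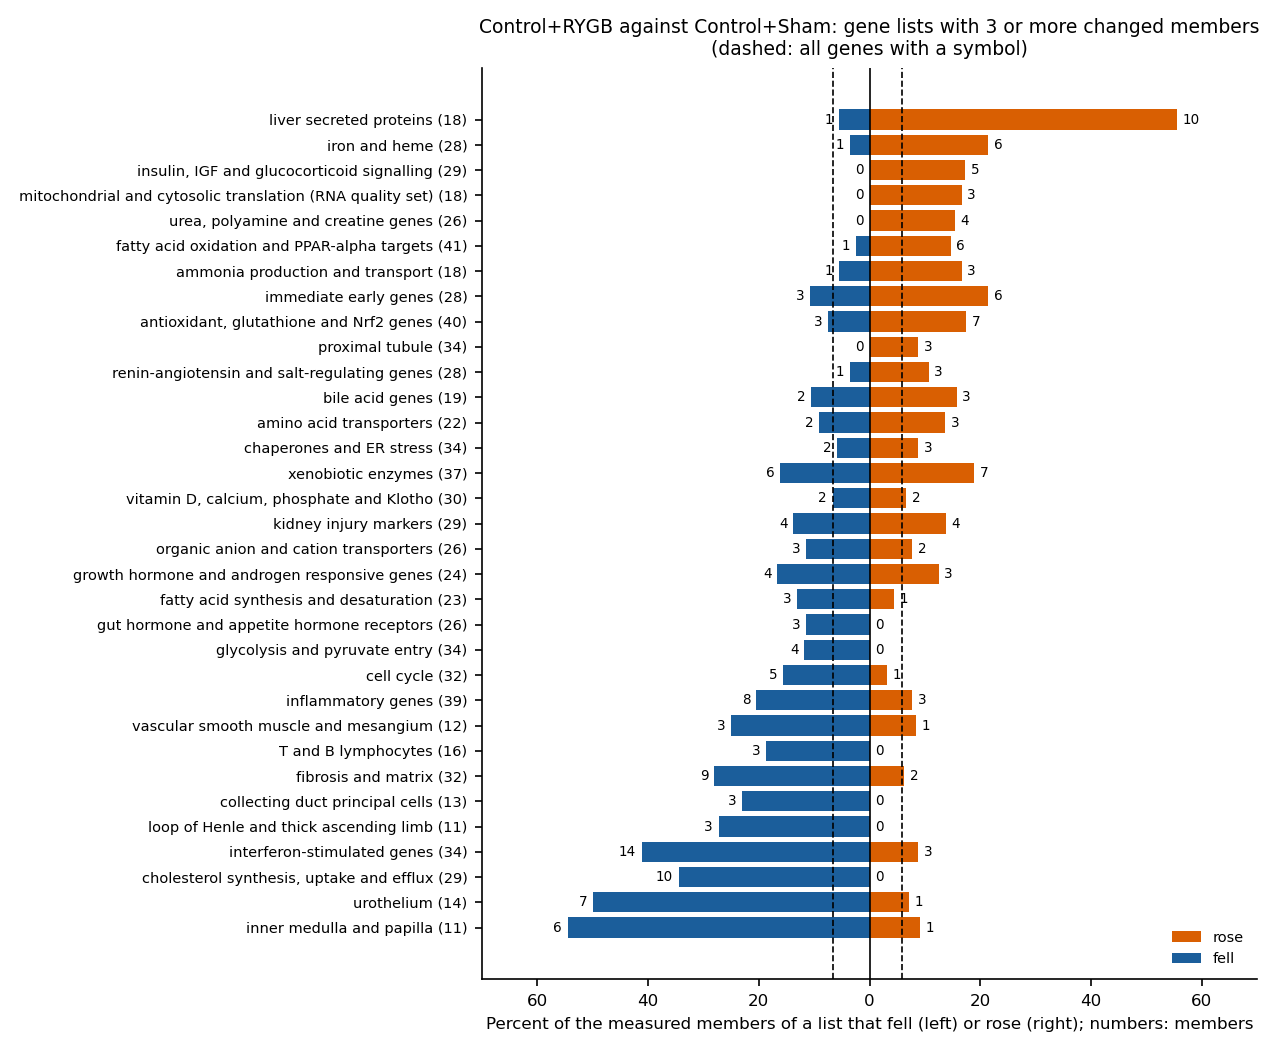
Percent of the measured members (x axis) that rose or fell in Control+RYGB against Control+Sham, for the 33 gene lists (y axis, measured members in brackets) with 3 or more changed members, with dashed lines at 5.79% and 6.67% for all genes with a symbol. Liver-secreted proteins reach furthest to the right with 10 of 18, and inner medulla and urothelium furthest to the left with 6 of 11 and 7 of 14.

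Genes that respond to hormones of growth, fasting and stress held several changes. Of 29 genes of insulin, IGF and glucocorticoid signalling, 5 rose and none fell. Igfbp3, the main carrier of IGF-I in plasma, was 3.44, 3.38 and 3.16 in sham and 4.54, 4.48 and 4.57 after bypass and rose by 1.21 (SE 0.13, adjusted p = 0.0029). Fkbp5, a target of the glucocorticoid receptor, rose by 1.10 (SE 0.13, adjusted p = 0.0042), Sesn3, a target of FoxO factors, by 1.46, Igfbp2 by 0.78, and Irs2 by 0.48. Of 24 genes responsive to growth hormone or androgen, 3 rose and 4 fell. Bcl6, a repressor in growth hormone signalling, fell by 1.38 (SE 0.10, adjusted p = 6.2e-04), from 2.22, 2.15 and 2.08 to 0.81, 0.68 and 0.79, and Stat5a by 0.61. Cish, a feedback inhibitor of Stat5, rose by 1.23 (SE 0.19, adjusted p = 0.0093), with 1.82 on its second probe. Bcl6 passed in both leave-out fits and with normexp, but not with the scan-day block, and in each leave-out fit 2 genes of this list fell. Of the insulin list none passed without Control+RYGB 1 and 1 without Control+RYGB 2 and 3.

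Of 28 genes of salt regulation 3 rose, the kininogens among them, and 1 fell, with 1 rise in each leave-out fit. The 1 that fell was Npr1, the receptor of atrial natriuretic peptide, by 0.80 (SE 0.14, adjusted p = 0.012). Of 26 receptors for gut and appetite hormones none rose and 3 fell: the glucagon receptor Gcgr, by 0.66 (SE 0.15, adjusted p = 0.024), and the somatostatin receptors Sstr2 and Sstr3, by 0.98 and 0.57, where Sstr2 gave 0.94 on its second probe. Of 17 clock genes 2 rose. Ciart, a repressor of the core clock activators, which bind CACGTG, was -4.51, -4.54 and -4.10 in sham and -2.92, -2.82 and -2.89 after bypass and rose by 1.50 (SE 0.20, adjusted p = 0.0058), and Per2 rose by 0.87. The Ciart stretch shown above holds CACGTG at -93, -35 and -21, and 6.42% of all windows hold at least 1. Per2 did not hold it, and 3 of 13 clock genes that did not change did. No clock gene and no gut hormone receptor passed in either leave-out fit. The time of day of tissue collection is not in the labels.

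Of 28 immediate early genes 6 rose and 3 fell. Jund, a member of the AP-1 family, was -0.03, -0.18 and 0.27 in sham and 4.47, 4.41 and 4.54 after bypass, and rose by 4.45 (SE 0.16, adjusted p = 6.8e-05), with the call kept in all 4 harder fits. In DM+Sham it stood at 3.67, 3.70 and 3.69 and in DM+RYGB at 0.76 and 1.02, a fall of 2.80 and the opposite of the control rats (interaction adjusted p = 8.6e-05). Egr2, Ier5 and Atf3 rose by 1.61, 1.48 and 0.99, and Myc fell by 0.54 (SE 0.09, adjusted p = 0.012). Zfp36, which destabilises messengers of cytokines, rose by 2.25. Both leave-out fits held 2 rises and no fall in this list.

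Iron genes rose in part. Of 28 iron and heme genes 6 rose and 1 fell. The list median was 0.73 with the 75th percentile and 0.26 by quantiles, against 0.29 and -0.04 over all genes. Tfrc, the transferrin receptor whose messenger is stabilised when iron is low, was 1.72, 2.01 and 1.64 in sham and 2.96, 2.94 and 2.96 after bypass and rose by 1.17 (SE 0.16, adjusted p = 0.006), with 2.02 on its second probe. Ireb2, the protein that binds that messenger, rose by 0.96, Ncoa4, which delivers ferritin to lysosomes, by 1.05, and the exporter Slc40a1 by 0.74. The ferroxidase Heph rose by 0.84, and Ppox of heme synthesis by 1.02. Tfrc also rose in diabetic rats, by 0.94. Tfrc passed with normexp, but no gene of this list passed in either leave-out fit.

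Antioxidant and glutathione genes held 7 rises and 3 falls among 40. Txnip, an inhibitor of thioredoxin that glucose induces, rose by 2.10 (SE 0.42, adjusted p = 0.017), from 0.45, 0.58 and 1.26 to 2.88, 2.87 and 2.83, and Gclm, the modifier subunit of glutathione synthesis, by 1.76. Gpx2, a glutathione peroxidase, rose by 1.52 (SE 0.21, adjusted p = 0.0064), Gstm1 by 1.50, the extracellular superoxide dismutase Sod3 by 1.27, and Txnrd1 by 0.66. Mgst2, Gstp1 and Srxn1 fell by 2.26, 0.84 and 0.65. Txnip also rose in diabetic rats, by 2.34. Gstm1 alone of these passed in each leave-out fit.

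Matrix and cell cycle genes were lower more often than higher. Of 32 fibrosis and matrix genes 9 fell and 2 rose. Vcan, the proteoglycan versican, was -1.66, -1.75 and -1.69 in sham and -3.26, -3.25 and -3.21 after bypass and fell by 1.54 (SE 0.19, adjusted p = 0.0047), with -2.14 on its second probe. Fbn1, Eln, Fn1, Col3a1 and Col5a1, which build fibres, fell by 0.73, 0.67, 0.57, 0.54 and 0.38, and the second probe of Eln gave 0.13. The cross-linking oxidase Loxl2 fell by 0.61 and the cytokine Tgfb1 by 0.47. Tgfb2 rose by 2.08 (SE 0.14, adjusted p = 5.5e-04), with 0.86 on its second probe, and the receptor Tgfbr1 by 0.58. Of 32 cell cycle genes 5 fell, Ccne1, Mcm3, Mcm6, Cdk1 and Ccna2, by 0.50 to 0.75, and Tyms rose by 0.81. Without Control+RYGB 1, 1 fibrosis gene fell and 1 rose, and no cell cycle gene passed. Without Control+RYGB 2 and 3, 2 fibrosis genes fell and 1 rose, and 1 cell cycle gene fell.

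Of 29 kidney injury markers 4 rose and 4 fell. Gdf15, a stress-induced cytokine, rose by 1.59 (SE 0.19, adjusted p = 0.004), from -1.31, -1.43 and -1.45 to 0.25, 0.13 and 0.16. Igfbp7, a marker of tubular cell cycle arrest, rose by 2.32 (SE 0.55, adjusted p = 0.027), but its RYGB arrays spread from 1.21 to 2.08 and its sham arrays from -0.89 to 0.02. Hspb1, a small heat shock protein, rose by 1.81. Tff3, a trefoil peptide of epithelia, fell by 1.27 (SE 0.21, adjusted p = 0.011), Krt18 by 0.97 and Gadd45b by 0.77. Havcr1, the proximal tubule injury marker KIM-1, was -0.98, -0.95 and -1.03 in sham and -0.47, -0.53 and -0.53 after bypass. This difference of 0.48 (SE 0.10, limma adjusted p = 0.019) passed neither with median scaling (0.36, adjusted p = 0.052) nor with quantile scaling. Ribosomal and translation genes, kept as a check of RNA quality, had a median of 0.87 with the 75th percentile and 0.13 with quantiles, and 3 of 18 rose, Rplp1, Eef1a1 and Rpl8, the last with 0.20 on its second probe. In each leave-out fit 1 injury marker rose and 1 fell, and no translation gene passed.

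The 10 genes with the highest fitted rises and no overlap of the arrays were Gal, Adtrp, Mup4l3, Lcn5, Spetex2g, Cyp3a2, Tat, Mup4, Jund and Klkb1, which gives no order of measured sizes, since 6 of them were below background on 2 or all 3 sham arrays. Gal, the precursor of the neuropeptide galanin, was -5.39, -5.27 and -5.20 in sham and 1.91, 1.96 and 2.0 after bypass and rose by 7.23 (SE 0.57, adjusted p = 9.9e-04), with 8.26 on its second probe. Adtrp, a membrane hydrolase that splits fatty acid esters of hydroxy fatty acids, was -5.03, -4.81 and -4.58 in sham and 1.56, 1.47 and 1.45 after bypass and rose by 6.32 (SE 0.23, adjusted p = 7.9e-05). Cyp3a2, a male-typical cytochrome of rat liver, rose by 5.36 (SE 0.15, adjusted p = 3.1e-05), from -6.16, -6.32 and -6.27 to -0.91, -0.85 and -0.88. Tat, the tyrosine aminotransferase of liver, was not well above background on any sham array and was at least 12.6-fold higher after bypass (adjusted p = 2.2e-04). Mup4 and Mup4l3, of the urinary protein family, rose by 4.52 and 5.41, Klkb1, plasma prekallikrein, by 4.32, Lcn5 by 5.38 and Spetex2g by 5.37. These 5 were well above background on 1 of 3 sham arrays, and genes of the Mup family are near-identical copies that a probe may not separate. Adtrp passed in all 4 harder fits, and Gal in all but the scan-day block.

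By fitted falls the 10 named genes were Slc14a2, Fgfbp1, Or52e51, Gldn, Svs1, Krt15, Upk2, Mmp20, Rab9b and Anxa8, of which Slc14a2, Gldn and Upk2 were well above background on all 6 arrays. The order of the others is not known, because 6 have only a bound and Krt15 was well above background on 1 of 3 RYGB arrays. Fgfbp1, a carrier that releases fibroblast growth factors from the matrix, was -2.41, -2.15 and -2.65 in sham and not well above background on any RYGB array, at least 71.7-fold lower (adjusted p = 5.0e-04). Gldn, gliomedin, fell by 6.17 (SE 0.78, adjusted p = 0.0049), from -1.34, -1.40 and -1.22 to -8.18, -6.89 and -6.74. Anxa8, an annexin of stratified epithelia, was at least 20.7-fold lower (adjusted p = 1.9e-05), and Svs1 at least 30.0-fold lower (adjusted p = 9.4e-04). The bounds for Or52e51, Rab9b and Mmp20 were 27.3-fold, 22.3-fold and 8.89-fold (adjusted p = 5.9e-04, 2.5e-04 and 1.9e-05), and the second probe of Rab9b gave -1.68. Fgfbp1, Anxa8 and Gldn had mean levels of -8.93, -9.90 and -8.57 in DM+Sham and of -9.12, -8.33 and -6.19 in DM+RYGB, so that the 3 Control+Sham arrays stood above all 8 others.

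The response in control rats was then set beside that in diabetic rats, which shares no array with it. The RYGB arrays of both were scanned on days 4 and 5, Control+Sham on days 1 to 3 and DM+Sham on days 2 to 4. Control+RYGB 2 and DM+RYGB 2, the array with muscle transcripts, also shared a scan entry in the file headers, as no other arrays did. Both responses also used the same estimate of spread and the joint quantile scaling. The part of scan day and of the shared scan in what the responses share was not tested. In diabetic rats 3307 genes rose (13.1%) and 2760 fell (10.9%). Of the genes that rose in control rats 886 also rose in diabetic rats, 45.2% of the former and 26.8% of the latter, and 272 fell in both, 19.6% and 9.86%. A change in opposite directions was found for 164 genes that rose in control rats and 175 that fell. The change itself differed between both responses (limma interaction, adjusted p under 0.05 with 3 scalings) for 3953 genes (15.7%). Among the genes with a symbol that changed in control rats this applied to 260 of 831 that rose and to 447 of 958 that fell. The interaction contains the control change itself, from the same arrays. Genes or list members picked for that change are therefore more likely to pass it, and their shares are not comparable with that of all genes. Over those 1789 genes the 2 changes correlated across genes with r = 0.35, where genes are not independent replicates. Of the 206 list members that rose or fell in control rats, the difference passed for 122.

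**Figure D4:**
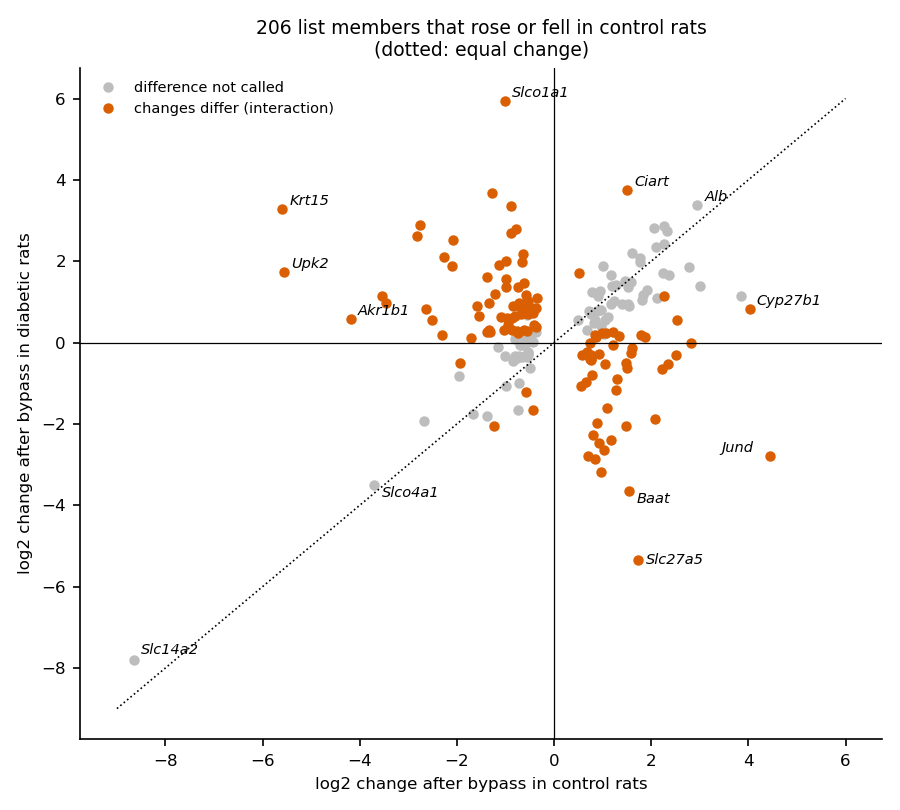
Log2 change after bypass in control rats (x axis) and in diabetic rats (y axis) for the 206 list members that rose or fell in control rats (points), with the line of equal change dotted and the 122 members whose changes differ in colour. Slc14a2 and Slco4a1 lie near the line at the lower left, and Jund, Slc27a5 and Slco1a1 lie in quadrants of opposite change.

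By fitted difference between both responses, the 10 named genes were Or52e51, Krt15, Gldn, Svs1 and Msln, with a higher change in diabetic rats, and Adtrp, Jund, Slc27a5, Fam111a and Kprp, with a lower one. Or52e51, Krt15, Svs1 and Kprp lay below background on all arrays of at least 1 group, so that the sizes of their differences are not known. Adtrp was 0.82, 0.87 and 0.86 in DM+Sham and -2.06 and -2.81 in DM+RYGB, a fall of 3.27 against a rise of 6.32 in control rats (interaction adjusted p = 1.1e-04). Msln, mesothelin, fell by 1.59 in control rats and rose by 5.71 in diabetic rats (interaction adjusted p = 8.6e-05). Fam111a, a protease that restricts viruses, differed by 0.08 (SE 0.17, adjusted p = 0.74) in control rats and fell by 5.75 in diabetic rats (interaction adjusted p = 1.8e-04). With the 75th percentile alone, 5589 genes differed between both responses, and without DM+RYGB 2, the array with muscle transcripts, 8394 did. The count was 2659 without Control+RYGB 1, 2322 without Control+RYGB 2 and 3, 3298 without Control+Sham 1, and 2877 without DM+Sham 2 and 3.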

How the data were processed

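Cy3-labelled RNA from renal cortex was hybridised to single-colour Agilent 4x44K arrays, 1 per sample. Spot intensity was read with Agilent Feature Extraction 11.0.1.1, per the file headers, and the deposited processed intensity (background-subtracted and spatially detrended, per the file headers) was the starting point. The authors' deposited value table holds log2 values with a median of 7.07 on every array and correlated with log2 intensity with r from 0.989 to 0.997. Its unit of centring is not stated, and it served as an alternative.

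From the intensity files, control spots were left out, spots of 1 probe were averaged, and log2 values were set to the 75th percentile of each array. Probes well above background on fewer than 2 of 11 arrays were dropped, which kept 28489 of 30367. Of all probes, 18005 carry 1 gene symbol in the platform annotation and 12362 none. A gene was read from its brightest probe, giving 25250 genes tested, 14358 with a symbol, and other probes of named genes are quoted where they differed from it in sign or by over 0.5. Arrays that differed by less than repeated spots were averaged, which left 9 samples of 4 groups. All groups entered 1 model (lmFit and eBayes of limma 3.58.1, R 4.3.3) with no block, and p-values were adjusted by Benjamini-Hochberg over all genes. The number of arrays limits the precision. The fit was checked on simulated data with known changes.

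The comparison and the gene lists were chosen with earlier results of these data known. Genes were named as the 10 highest fitted rises and 10 falls without overlap, up to 4 changed members per list by smallest p, a fixed set of NADPH, AMPK and tubule genes, and the 5 highest fitted interaction differences in each direction. Other list members, among them Aqp2 and G6pc1, were named after their values were seen. Some members of the lists and of the fixed set are not reported here. Pgd of the fixed set has no probe with its symbol here. The summed signal of a marker list is the log2 of the sum of its members' scaled linear signals. Deviations of the control arrays from their group means correlated with r = -0.14, 0.09 and 0.04 for equal replicate numbers. For unequal numbers r ran from -0.145 to 0.15. With so few arrays centred on their own means, this check cannot exclude a pairing by number. Alternatives covered scaling, normexp with an offset of 50, the deposited values, filters, probe choice, blocks, weights and left-out arrays. Normexp started from the median spot and background signals and not from the processed intensity, so that fit also lacked the spatial detrending. Promoter windows came from RefSeq (GRCr8), for genes with an entry there.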

Additional observations from a re-analysis of the deposited data

Results flagged for a closer look

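Of the genes named above, 118 had a change after bypass that differed between control and diabetic rats by the interaction test of limma with 3 scalings. Each value is the change in diabetic rats minus that in control rats, on the log2 scale, so that a negative value means a lower change with diabetes. Over all genes with a symbol, 17.9% passed this test. The named genes were mostly picked for their control change, which is part of the test, or for the interaction itself. Their count is therefore not comparable with that share. For Fgfbp1, Or52e51, Svs1, Anxa8, Rab9b, Krt15, Krt17, Tat and Kprp at least 1 group lay below background on all its arrays, so that their values are no measured differences between levels. Named genes were not tested for single arrays far from the rest of a group, since no control group holds over 3 arrays.

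Among the interferon genes the change in diabetic rats was higher, by 2.66 for Ifit3, 2.56 for Usp18, 2.48 for Irf7, 2.41 for Isg15, 2.30 for Oasl and 2.10 for Ifit2. For the interferon genes the diabetic change was higher than the control change, by 1.72 for Mx1, 1.46 for Irf9, 1.35 for Gbp2, 1.25 for Ifi44, 1.16 for Psmb8 and 0.84 for Stat2. The interferon genes with a lower change in diabetic rats differed by -2.82 for Cxcl10, -1.60 for Cxcl11 and -1.28 for Irf1. Among the vitamin D and mineral genes the change in diabetic rats was higher, by 4.24 for Gc. For the vitamin D and mineral genes the diabetic change was lower than the control change, at -3.19 for Cyp27b1 and -1.18 for Stc1. The urothelium markers with a higher change in diabetic rats differed by 8.87 for Krt15, 7.28 for Upk2, 4.68 for Upk3a, 4.59 for Krt17, 4.42 for Upk1b and 3.57 for Krt20. Among the urothelium markers the change in diabetic rats was higher, by 3.45 for Upk1a and 1.19 for Tp63. For the inner medulla markers the diabetic change was higher than the control change, by 4.77 for Akr1b1 and 1.81 for S100a4.

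The inner medulla markers with a lower change in diabetic rats differed by -2.17 for Slc6a6. Among the lymphocyte markers the change in diabetic rats was higher, by 3.0 for Gzmb. For the inflammatory genes the diabetic change was higher than the control change, by 3.97 for Cxcl2 and 1.42 for Ptgs1. The inflammatory genes with a lower change in diabetic rats differed by -2.81 for Ccl20 and -0.97 for Icam1. Among the cholesterol genes the change in diabetic rats was higher, by 1.38 for Abca1, 1.38 for Lss, 1.37 for Pmvk and 0.83 for Fdps. For the fatty acid genes the diabetic change was higher than the control change, by 1.63 for Acsl5 and 1.23 for Scd2. The fatty acid genes with a lower change in diabetic rats differed by -3.69 for Angptl4, -2.87 for Acot12 and -1.75 for Slc22a5. Among the glucose, ammonia and urea genes the change in diabetic rats was higher, by 1.65 for Pfkfb3.

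For the glucose, ammonia and urea genes the diabetic change was lower than the control change, at -2.84 for G6pc1, -2.41 for Slc5a2, -1.63 for Sms and -0.82 for Arg1. The NADPH and AMPK genes with a higher change in diabetic rats differed by 1.31 for Mthfd2l and 1.19 for Prkag1. Among the NADPH and AMPK genes the change in diabetic rats was lower, at -1.43 for Idh1, -1.11 for Nox4 and -1.04 for H6pd. For the liver-secreted proteins the diabetic change was lower than the control change, at -4.15 for Fga, -3.56 for Fgb, -3.41 for Ttpa and -1.12 for Fgg. The bile acid, transport and xenobiotic genes with a higher change in diabetic rats differed by 6.96 for Slco1a1, 5.64 for Fabp6, 5.43 for Cyp2c11 and 3.06 for Ahrr. Among the bile acid, transport and xenobiotic genes the change in diabetic rats was lower, at -7.08 for Slc27a5, -5.20 for Baat, -2.88 for Cyp1a1, -2.86 for Abcb11, -2.71 for Cyp2e1 and -1.22 for Slc10a1. For the bile acid, transport and xenobiotic genes the diabetic change was lower than the control change, at -0.83 for Ephx2. The hormone-related and clock genes with a higher change in diabetic rats differed by 2.99 for Sstr2, 2.26 for Ciart, 1.64 for Bcl6, 1.55 for Gcgr and 1.32 for Sstr3.

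Among the hormone-related and clock genes the change in diabetic rats was lower, at -1.97 for Kng2, -0.94 for Igfbp3 and -0.73 for Per2. For the immediate early genes the diabetic change was lower than the control change, at -7.25 for Jund, -1.98 for Ier5, -1.74 for Egr2 and -0.74 for Atf3. The iron and antioxidant genes with a higher change in diabetic rats differed by 4.35 for Mgst2 and 1.75 for Gstp1. Among the iron and antioxidant genes the change in diabetic rats was lower, at -2.43 for Sod3, -2.13 for Gstm1, -1.63 for Txnrd1, -1.57 for Ncoa4, -1.13 for Slc40a1 and -0.65 for Heph. For the matrix, cell cycle and injury genes the diabetic change was higher than the control change, by 4.95 for Tff3, 2.21 for Vcan, 1.70 for Fbn1, 1.57 for Krt18, 1.57 for Mcm6 and 1.22 for Col5a1. The matrix, cell cycle and injury genes with a higher change in diabetic rats differed by 1.04 for Gadd45b, 0.99 for Mcm3 and 0.93 for Loxl2. Among the matrix, cell cycle and injury genes the change in diabetic rats was lower, at -3.97 for Tgfb2, -1.88 for Havcr1, -1.84 for Gdf15, -0.90 for Tgfbr1 and -0.65 for Fn1. For the other nephron markers the diabetic change was higher than the control change, by 2.49 for Elf5.

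The other nephron markers with a lower change in diabetic rats differed by -1.19 for Dpep1. Among the genes named by fitted size the change in diabetic rats was higher, by 10.86 for Or52e51, 8.56 for Gldn, 8.02 for Svs1, 7.30 for Msln, 7.15 for Fgfbp1 and 6.32 for Anxa8. For the genes named by fitted size the diabetic change was higher than the control change, by 3.44 for Rab9b. The genes named by fitted size with a lower change in diabetic rats differed by -9.59 for Adtrp, -5.83 for Fam111a, -5.73 for Kprp, -5.11 for Gal, -4.44 for Spetex2g and -3.59 for Tat. Among the genes named by fitted size the change in diabetic rats was lower, at -1.87 for Cyp3a2.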

How the results depend on the processing

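With the 75th percentile alone 5453 genes were higher and 1390 lower in Control+RYGB, 3348 passed with 3 scalings, and 5589 had a change that differed from that in diabetic rats. Quantile scaling gave 1996 higher and 2974 lower, and the deposited values gave 2217 and 3123. Normexp gave 56 and 49, with 87 under 3 scalings and 1121 differing from diabetic rats. The scan-day block, on 11 separate arrays, gave 372 and 86, with 119 under 3 scalings. A shared-scan block set apart Control+RYGB 2 and DM+RYGB 2, which shared a scan. That fit, also on 11 separate arrays, gave 8987 and 2445, with 6044 and 10299 for the other 2 counts. With 11 separate arrays and no block 9045 were higher and 2670 lower, with 6596 and 9518. Array weights gave 12121 and 3984, with 9988. With the 2 control groups alone 5032 passed with 3 scalings, and without both DM+RYGB arrays 5444, with 2522 lower. A change of 2-fold or more left 3164 and 415, with 1975 and 3672. Leaving out arrays one at a time, or both of a merged pair, gave 491 to 7345 higher, 251 to 2522 lower, 396 to 5444 with 3 scalings and 2322 to 8394 differing.

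The labels state no pairing by replicate number, and the correlations given above cannot exclude one. The fits with a replicate block also counted the merged pairs as separate arrays. With that block over 4 groups 8847 were higher and 2514 lower, with 6284 and 9043. With the replicate block on the 2 control groups 2209 were lower and 5539 passed with 3 scalings. The interaction could not be fitted with 2 groups or without both DM+RYGB arrays.

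Of 187 named genes with an adjusted p under 0.05 with the 75th percentile, 182 passed with quantiles, 39 with the scan-day block, 24 with normexp, 67 without Control+RYGB 1 and 81 without Control+RYGB 2 and 3. Most of these genes were picked because they passed with 3 scalings, so their share by quantiles was largely fixed by that choice. Over all genes 3348 passed with 3 scalings, where 5453 were higher and 1390 lower with the 75th percentile. Tp63 turned to -1.57 with the mean of its probes. Signs also turned for genes without a call with 3 scalings, of which Aqp2 had an adjusted p of 0.026 by quantiles and 0.0176 from the deposited values in limma. Median scaling gave -0.0049 for Prkaa1, -0.0088 for Prkaa2 and -0.044 for Fam111a, and quantile scaling -0.095 for Idh2, -0.045 for Prkaa1, -0.032 for Prkaa2, -0.033 for Fam111a and -0.52 for Aqp2. The deposited table gave -0.11 for Idh2, -0.044 for Prkaa1, -0.032 for Prkaa2, -0.034 for Fam111a and -0.59 for Aqp2. H6pd was 0.17 with the mean of probes and 0.031 with array weights. Prkaa2 and Fam111a were -0.18 and -0.14 with the scan-day block, Prkaa2 -0.018 with the shared-scan block, and Fam111a ran from -0.0056 to 0.21 with single arrays left out. The cause of these shifts was not tested. Dim probes set the limit of detection: of 25250 genes, those below background in a whole group have only a bound there.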

Other observations

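The counts of further gene lists in control rats stand beside the background shares of 5.79% that rose and 6.67% that fell. In diabetic rats 9.69% of genes with a symbol rose and 14.1% fell, and the change differed between both responses for 17.9%. Of 22 amino acid transporters 3 rose and 2 fell, whereas 12 fell in diabetic rats after the same operation, and the change differed for 13 of them. Of 34 chaperone and ER stress genes 3 rose and 2 fell, and of 22 hypoxia targets 1 rose and 1 fell. Of 29 TCA cycle and respiratory chain genes 1 rose, of 13 ketone body genes 1 rose, and of 15 antigen presentation genes 1 fell. Among 15 podocyte markers 1 rose and none fell, and among 12 markers of vascular smooth muscle and mesangium 1 rose and 3 fell. Proximal tubule markers, of which 3 of 34 rose in control rats, held 1 rise and 21 falls in diabetic rats, and the change differed for 20.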
